A study of Mus musculus with 18 samples.

Results

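The 9 prostate libraries of 30-week-old mice were divided by 1 transcript, 9530053A07Rik, regardless of genotype. A library was placed in the high set where the deposited normalized count of 9530053A07Rik was over 100000 and in the low set otherwise, which gave 4 high and 5 low libraries of the 18 in the series. The libraries were thus chosen by the measured level of this gene, so every comparison of high with low at 30 weeks is a description and carries no test. The question was which genes varied together with it between libraries of one labelled tissue, the ventral and lateral lobes.

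Each library came from a male mouse of strain C56NL/6N, with 3 mice for each genotype and age. The genotypes were ELAC2+/+ (WT), ELAC2-/- (KO), in which Cre recombinase under the probasin promoter removes exon 8 of Elac2 in prostate epithelium, and ELAC2A537T (A537T), a homozygous substitution present in the whole body. The high libraries were 2AF and 3AF of WT and 4AF and 6AF of KO. The low libraries were 1AF of WT, 5AF of KO and 7AF, 8AF and 9AF of A537T. All 3 A537T libraries were low, so that a low level and the A537T genotype cannot be told apart in them, whereas WT and KO each had 2 high libraries and 1 low library. The 9 libraries at 10 weeks (10AF to 12AF of WT, 13AF to 15AF of KO, 16AF to 18AF of A537T) were not used in the rule. Library names are those of the columns in the deposited tables. The names hold no genotype: columns present in both tables of an age were taken as WT and the others as the mutant of their table. The mutant of a table was matched by its row means to the mean counts that the study lists for that mutant. No column was tied to a single mouse. The files hold 7734190 to 11225281 recovered reads per library at 30 weeks and 6569642 to 10231862 at 10 weeks.

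The mouse prostate consists of paired anterior, dorsal, lateral and ventral lobes whose luminal cells secrete different proteins into the seminal fluid. Tgm4 encodes the prostate transglutaminase that crosslinks seminal vesicle proteins when the copulatory plug forms, and it is known from the anterior lobe (the coagulating gland) and the dorsal lobe. 9530053A07Rik lies beside Fcgbp, the gene of the IgG Fc-binding protein of mucus, and belongs to the same group of secreted proteins with von Willebrand factor D domains. The ventral lobe is known for Sbp, the spermine-binding protein, and for Spink1, a secreted protease inhibitor.

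9530053A07Rik (ENSMUSG00000078776.9, chr7:28129466-28164811 of GRCm38, plus strand) spanned 4 orders of magnitude between the libraries. Its normalized counts were 491470 in 2AF, 338038 in 3AF, 222172 in 4AF and 184398 in 6AF. In the low set they were 23543 in 8AF, 9863 in 7AF and 4451 in 9AF, and only 56.5 in 1AF and 43.6 in 5AF. The low libraries were thus of 2 kinds, the A537T libraries at an intermediate level and a WT and a KO library near the bottom of the scale. The log2 difference, high minus low, was 7.88 ± 2.18 (SE, n = 4 and 5). In the deposited scaling used by the rule, the lowest high library had 186073.6 and the highest low library 23783.6. As a share of all reads, the gene took 5.30% in 2AF (95% Wilson interval 5.29% to 5.32%) and 0.000643% in 1AF (0.00051% to 0.000811%). Since the reads carry no molecular identifiers, both intervals describe counting error and nothing else.

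Tgm4 (ENSMUSG00000025787.6, chr9:123034726-123067561, plus strand) had normalized counts of 58685 in 2AF, 39900.4 in 3AF, 24329 in 4AF and 19654 in 6AF. It had 2533 in 8AF, 1001 in 7AF, 628 in 9AF, 41.4 in 1AF and 32.7 in 5AF. The log2 difference was 6.78 ± 1.46. The order of the 9 libraries was the same for both genes (Spearman's rho 1.00, Pearson's r 0.99 on the log2 scale, n = 9). Between 7.09 and 9.85 reads of 9530053A07Rik were counted for each read of Tgm4 in 7 libraries at 30 weeks, against 1.37 in 1AF and 1.33 in 5AF. The ratio was 7.14 to 8.25 in 8 libraries at 10 weeks and 2.67 in 12AF. The 3 libraries with the lowest level of 9530053A07Rik therefore also had a lower ratio to Tgm4 than the others. In RNA from whole tissue, fewer cells of a type and less RNA per cell cannot be told apart.

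**Figure D1:**
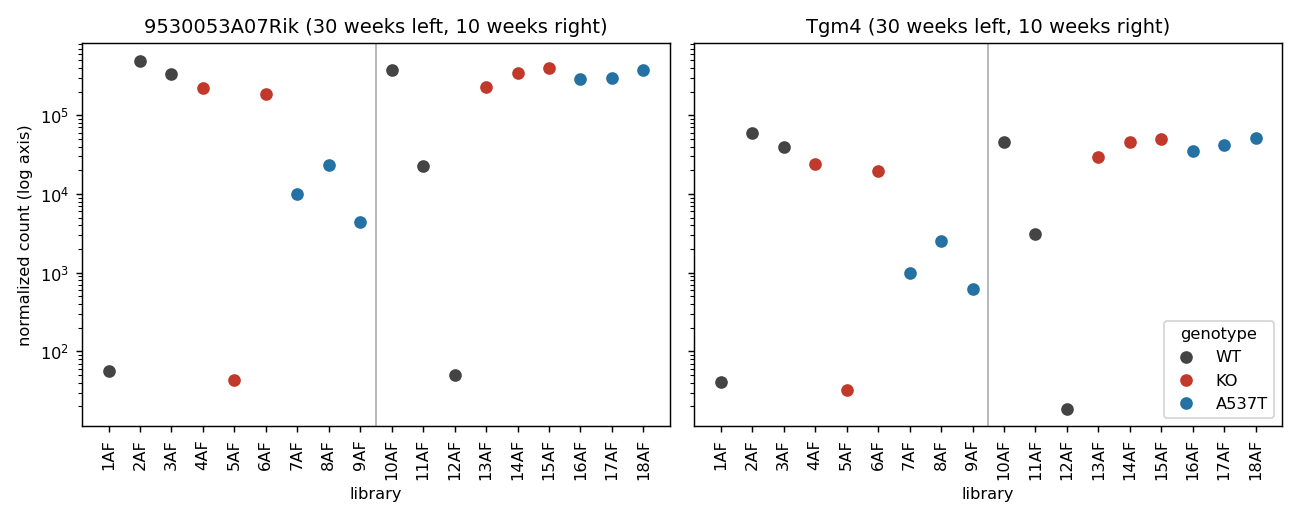
Normalized counts of 9530053A07Rik (left) and Tgm4 (right) on a log axis in each of the 18 libraries, 1 point a library, coloured by genotype, with 30-week libraries left and 10-week libraries right of the line in each panel. Both genes show the same order at 30 weeks, with 1AF and 5AF lowest, and at 10 weeks 11AF and 12AF lie below the other 7 libraries.

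The promoter windows of both markers and of Tcaf3 and C1rb, the genes that differed most besides 9530053A07Rik, are shown because these genes rose and fell together over the libraries. Each window runs from 250 bases before to 50 bases after the start of the RefSeq transcript, on the strand of the gene. They lie at chr7:28129216-28129515 (plus) for 9530053A07Rik, chr9:123034491-123034790 (plus) for Tgm4, chr6:42597323-42597622 (minus) for Tcaf3 and chr6:124570180-124570479 (plus) for C1rb, in build GRCm38.p6. Capitals mark matches to 3 motifs, each searched on both strands. The first, AGAACA, is a single arm of the androgen receptor element. A second, the forkhead motif, reads TGTTTAC. The third, the TATA box, reads TATAAA.
9530053A07Rik: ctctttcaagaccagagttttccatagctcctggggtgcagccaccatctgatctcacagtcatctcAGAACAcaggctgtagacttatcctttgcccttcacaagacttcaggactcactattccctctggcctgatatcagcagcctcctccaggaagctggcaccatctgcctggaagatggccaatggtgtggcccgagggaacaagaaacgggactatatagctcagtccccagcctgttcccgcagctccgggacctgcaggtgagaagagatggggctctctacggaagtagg
Tgm4: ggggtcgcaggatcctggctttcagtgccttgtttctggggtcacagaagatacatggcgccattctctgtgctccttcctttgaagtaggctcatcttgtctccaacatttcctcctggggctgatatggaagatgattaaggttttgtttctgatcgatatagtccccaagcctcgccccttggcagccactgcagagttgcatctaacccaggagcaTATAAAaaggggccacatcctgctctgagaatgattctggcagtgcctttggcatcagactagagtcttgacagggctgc
Tcaf3: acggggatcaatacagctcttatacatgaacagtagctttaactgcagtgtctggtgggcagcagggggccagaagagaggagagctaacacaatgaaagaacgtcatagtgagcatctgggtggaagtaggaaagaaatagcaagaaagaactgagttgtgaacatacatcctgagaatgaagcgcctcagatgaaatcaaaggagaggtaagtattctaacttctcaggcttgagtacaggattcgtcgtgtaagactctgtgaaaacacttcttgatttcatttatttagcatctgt
C1rb: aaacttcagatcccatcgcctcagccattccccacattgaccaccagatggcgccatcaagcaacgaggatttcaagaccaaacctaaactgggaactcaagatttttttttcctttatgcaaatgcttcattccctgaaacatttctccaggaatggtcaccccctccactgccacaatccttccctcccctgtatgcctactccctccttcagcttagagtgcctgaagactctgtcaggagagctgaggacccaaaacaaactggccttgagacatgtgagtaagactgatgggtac

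The window of 9530053A07Rik held 1 androgen receptor motif, starting 183 bases before the transcript start, and that of Tgm4 held 1 TATA box, starting 30 bases before it. The windows of Tcaf3 and C1rb held none of the 3 motifs, which says only that these letters were not in these windows. Of the 65 genes higher in the high set, 58 had a window, and the androgen receptor motif was in 13 of them (22.4%), beside 19% of all 32851 windows. The TATA box was in 5 (8.62%, beside 13.6% of all) and the forkhead motif in 0 (beside 3.65% of all). The TATA box was added to the search after the windows had been read.

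Among the 14763 genes whose average over the 9 libraries reached 10 normalized counts, 65 were higher in every high library than in any low library by at least 1 on the log2 scale, 0.44% of the genes, and 6 were lower in the same sense, 0.0406%. Without the size limit, 189 genes lay above with no overlap (1.28%) and 115 below (0.779%). The median difference over all genes was -0.00208, and -0.0922 where each library was scaled to the same total, so that directions of differences smaller than 0.1 depend on the scaling. The 65 genes include 9530053A07Rik itself, and their number rests on how the libraries were chosen. It was 99 without 6AF, and the 6 lower genes became 35 without 1AF. Their log2 differences fell into tiers, with 14 genes at 5 or more, 0 between 4 and 5, 10 between 3 and 4, 16 between 2 and 3 and 25 between 1 and 2. By the GENCODE annotation 56 of them were protein coding, 4 lincRNA and 2 processed pseudogenes, and the others were 1 snoRNA, 1 miRNA and 1 unclassified transcript.

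Tcaf3 (ENSMUSG00000018656.5), a TRPM8 channel-associated factor, had the second largest difference. Its normalized counts were 36341, 24314, 5183 and 4110.3 in 2AF, 3AF, 4AF and 6AF, and 431, 881 and 309.6 in 7AF, 8AF and 9AF. It had 11.9 in 1AF and 1.45 in 5AF, a log2 difference of 7.15 ± 1.99 (SE, n = 4 and 5). The neighbouring paralogue Tcaf2, which lies 25324 bases from Tcaf3, had 3869, 2973, 935 and 814 in the high libraries and 503, 386, 368, 805 and 291 in 1AF, 5AF, 7AF, 8AF and 9AF. The sets nearly met, in 6AF and 8AF, and the log2 difference was 1.96 ± 0.58. Reads of paralogues can be exchanged by transcript quantification, so the smaller difference of Tcaf2 is uncertain.

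C1rb and C1s2 are copies of the complement proteases C1r and C1s and lie 43454 bases apart on chromosome 6. C1rb had 2384, 1654, 2642 and 2207 in the high libraries, 87.7, 171 and 39.1 in 7AF, 8AF and 9AF, 0 in 1AF and 0.727 in 5AF, a log2 difference of 7.10 ± 1.72. C1s2 had 247, 191, 957 and 705 in the high libraries, 28.9, 54.4 and 20.6 in the A537T libraries and 0 in 1AF and 5AF (5.70 ± 1.51), where a count of 0 allows up to 3 reads. The copies C1ra and C1s1 did not share this pattern. C1ra had 144, 167, 175 and 181 in the high libraries and 97.1, 185, 212, 229 and 214 in 1AF, 5AF, 7AF, 8AF and 9AF (-0.11 ± 0.26). C1s1 had 317, 259, 319.7 and 402 in the high libraries and 228, 358, 443, 491 and 465 in the same order of low ones (-0.26 ± 0.26). Of 19 measured complement genes, 2 were called higher, which are C1rb and C1s2, and 14 had a negative difference, with a list median of -0.27. The list median was 0.007 with genotype as a term, so its negative direction was not seen within genotypes.

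Gm5615, a predicted gene, had 7819.6, 5321, 2156 and 1573 in the high libraries. It had 285, 406 and 211 in 7AF, 8AF and 9AF, 2.39 in 1AF and 0 in 5AF (log2 difference 6.49 ± 2.11). A630095E13Rik, which lies 93791 bases from Gm5615 on chromosome 9, had 1646 and 1096 in the WT high libraries but 143 and 127 in the KO high libraries. It had 45.8 in 7AF and 63.0 in 9AF, and 0 in 8AF, 1AF and 5AF (6.43 ± 1.82). 8AF, which had the highest 9530053A07Rik among the low libraries, thus had no read of A630095E13Rik.

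Gsdma, a gasdermin able to form membrane pores, had 1277, 908, 699 and 579 in the high libraries against 3.18, 1.45, 7.97, 22.9 and 4.34 in 1AF, 5AF, 7AF, 8AF and 9AF (6.99 ± 0.67). Fgl1, a fibrinogen-like secreted protein, had 376, 246, 321 and 249 against 5.57, 2.18, 7.97, 9.54 and 9.78 in the same order (5.33 ± 0.39). For both genes every low library had at most 22.9 normalized counts, the A537T libraries among them. Nlrp10, a NOD-like receptor family protein, had 853, 605, 78.1 and 49.6 against 3.98, 4.36, 1.99, 4.77 and 4.34 (5.48 ± 0.92). The remaining genes with a difference of 5 or more were Gm37223 (6.22 ± 1.07), Ms4a5 of the tetraspan MS4A family (6.15 ± 1.07), Glb1l3, a beta-galactosidase-like gene (5.72 ± 1.47), and Gm35363. Gm37223 had 211 to 455 in the high and 0 to 21.0 in the low libraries.

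**Figure D2:**
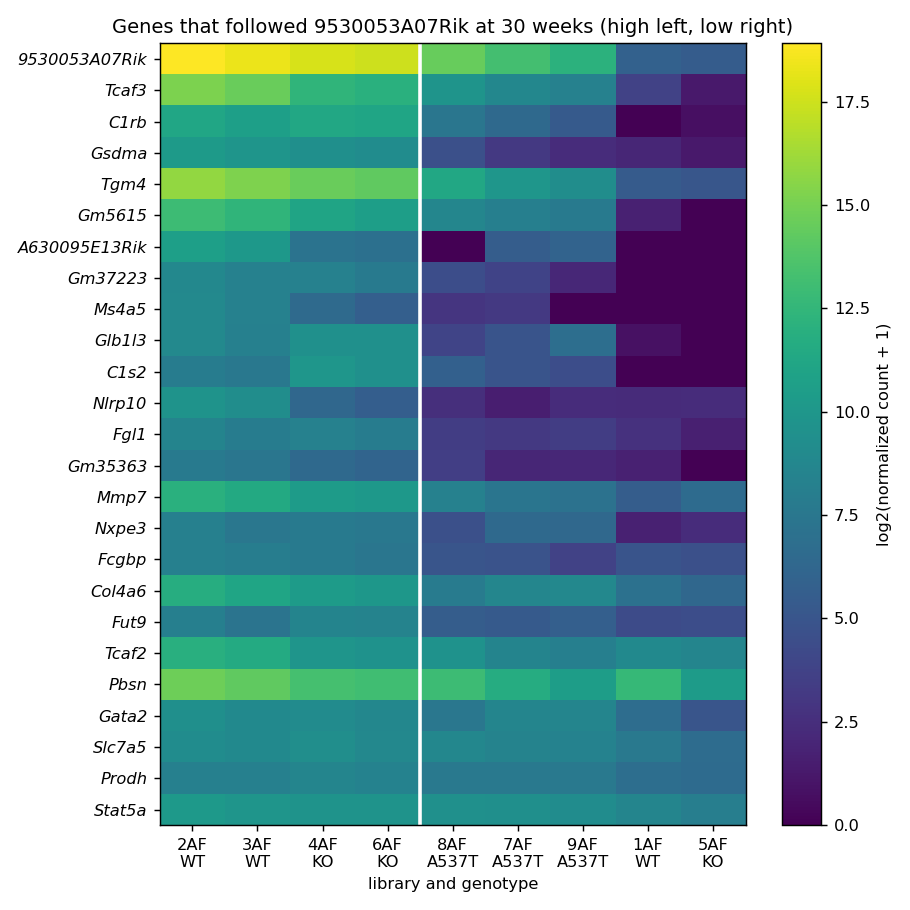
Level of 25 genes (rows) as log2(normalized count + 1), by colour, in the 4 high libraries (left of the white line) and the 5 low libraries, with the genotype under each library. The rows are the 14 genes with a log2 difference of at least 5, from 9530053A07Rik down to Gm35363, followed by 11 genes of smaller difference. The A537T columns are intermediate for Tgm4, Tcaf3 and C1rb and dark for Gsdma and Nlrp10.

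Among the genes of smaller difference were secreted or surface proteins and enzymes. Mmp7, the epithelial metalloprotease matrilysin, had 4060.5, 2814, 1351 and 1082 in the high libraries and 47.0, 98.9, 164, 319.7 and 137 in 1AF, 5AF, 7AF, 8AF and 9AF (3.98 ± 0.64). Fcgbp ends 8604 bases before 9530053A07Rik starts. It had 303, 262, 221 and 167 in the high libraries and 28.7, 24.0, 26.9, 31.5 and 11.9 in the low ones (3.26 ± 0.31). The proteins of these neighbours resemble each other, and how reads were divided between the genes was not tested. Unlike 9530053A07Rik, Fcgbp had levels in 1AF and 5AF that overlapped those of the A537T libraries.

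Col4a6, a collagen of basement membranes, had 3527, 2273, 1336 and 1013 in the high and 135, 79.3, 407, 234 and 456 in the low libraries (3.07 ± 0.64). Fut9, which adds fucose to surface glycans, had 291, 156, 376 and 350.4 against 19.1, 21.1, 40.8, 47.7 and 51.1 (3.03 ± 0.42). Pbsn, probasin, an androgen-dependent secretory protein, had 26708, 20172, 10458 and 8639 in the high libraries. It had 6417 in 1AF, 1338 in 5AF and 3358, 8166 and 1475 in 7AF, 8AF and 9AF (2.20 ± 0.69), so 8AF and 6AF nearly met. The probasin promoter also drives Cre in the KO mice, and among the 9 libraries the low KO library 5AF had the lowest level of endogenous Pbsn. Elac2 had 97.6 and 121 in the high KO libraries and 149.8 in 5AF, beside 148, 152 and 192 in WT and 119.5, 187 and 113 in A537T, and whether deletion differed between the KO libraries was not tested. These counts cover the whole gene and not only exon 8, and they did not separate the genotypes.

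Of the genes between 2 and 4, Nxpe3 had 301, 179, 215 and 190.2 in the high libraries, 88.7, 22.9 and 84.7 in 7AF, 8AF and 9AF, and only 2.39 in 1AF and 4.36 in 5AF (3.43 ± 1.12). Greb1, known as an early target of sex steroid receptors, had 239.7, 140.4, 100.1 and 39.2 in the high libraries and 5.57, 5.09, 16.9, 19.1 and 6.52 in 1AF, 5AF, 7AF, 8AF and 9AF (3.42 ± 0.64). Pgm2l1, which makes glucose bisphosphate, had 1717, 1316, 727 and 682 against 238, 198, 181, 216 and 184 (2.34 ± 0.30), where the A537T libraries overlapped 1AF and 5AF. The tier also held Lipc, Sprr2a2, Cbx3-ps8, Fbp1, Adarb2 with the overlapping Gm48261, Smad9, Lct, Gxylt2, Klf12, Nxf7, Chn2, Mcoln2, Gpr37l1 and Ptger3. Between them, Cbx3-ps8 lies 23562 bases from Mmp7, and reads of the overlapping pair cannot be assigned with certainty.

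Of the genes between 1 and 2, Atp12a, a proton and potassium pump, had 624, 455, 384 and 311 in the high libraries and 105, 39.3, 119, 208 and 136 in 1AF, 5AF, 7AF, 8AF and 9AF (2.00 ± 0.48). Slc15a2, a peptide transporter, had 545, 456, 431 and 367 against 81.2, 287, 108, 137 and 94.5 (1.80 ± 0.38), and Slc39a8, a zinc importer, differed by 1.24 ± 0.31. In Slc15a2 the KO library 5AF was the highest of the low set. Akr1b3, an aldose reductase, had 2576, 1920.5, 1889 and 1495 against 727, 599.9, 1240.1, 731 and 1396 (1.12 ± 0.31).

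In the same tier, Slc7a5, a transporter of large neutral amino acids, had 584, 503, 636 and 445 against 197, 100.4, 353, 419.9 and 341 in 1AF, 5AF, 7AF, 8AF and 9AF (1.09 ± 0.44). Prodh, which begins proline breakdown, had 305, 294, 393 and 329 against 115, 96.0, 195, 201 and 199.9 (1.09 ± 0.27). Gpt2 and Aldh1l2, enzymes of mitochondrial alanine and folate metabolism, differed by 1.16 and 1.86. Of transcription factors, Gata2 had 697, 492, 545 and 424 against 107, 30.5, 387, 181 and 379 (1.77 ± 0.77). For Slc7a5, Prodh and Gata2 each A537T library lay above both 1AF and 5AF. In all, the 3 A537T libraries lay above both 1AF and 5AF in 32 of the 64 genes other than 9530053A07Rik. The library with the lowest count was 1AF or 5AF in 44 of the 65, ties included, where the choice of genes already makes the lowest a low library. Neither count was made over all genes, so they do not set these genes apart from others.

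The high libraries of WT and KO were not alike in all of these genes. In 39 of the 64 genes both WT high libraries were above both KO high libraries, and in 7 the reverse held, beside a difference of 1.01 on the log2 scale in 9530053A07Rik itself. The same count over all genes was not made, so 39 and 7 do not set the 64 genes apart from others. The gap, WT minus KO, was 3.51 for Nlrp10, 3.31 for A630095E13Rik, 2.69 for Tcaf3 and 2.48 for Ms4a5. In the other direction it was -2.80 for Erich3 and for Sprr2a2, -1.91 for C1s2 and -0.89 for Glb1l3. Genes of the seminal vesicle made up 8.54% of normalized counts in 4AF and 6.33% in 6AF, against 0.000751% in 2AF and 0.000854% in 3AF, and their part in these gaps was not tested. With 2 libraries a side these gaps carry no test.

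By likeness over the 9 libraries at 30 weeks (Pearson's r of log2 values, genes with a mean of at least 100), the 10 genes nearest to 9530053A07Rik were C1rb, Tgm4, Gm5615, Tcaf3, Gm37223, C1s2, Prodh, Stat5a, Ctdsp1 and Gars, with r from 0.95 to 0.99. Of 8280 such genes, 33 had r of at least 0.9 and 17 had r of -0.9 or below. The points share their libraries and 1 scaling, and r says nothing of the size of a difference. Stat5a, a transcription factor downstream of the prolactin receptor, had 1207, 921, 837 and 822 in the high and 397, 268, 681, 719 and 598 in the low libraries (0.90 ± 0.33). Ctdsp1, a phosphatase, had only 423 to 460.0 in the high and 343 to 418 in the low libraries (0.21 ± 0.07). Gars, the glycyl-tRNA synthetase, had 684 to 720.3 and 414 to 606 (0.46 ± 0.12).

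Few genes were lower in the high libraries, and by less. The 10 with the most negative difference and no overlap at a mean of at least 100 ran from -0.44 for Aacs to -0.82 for B230362B09Rik. Aacs, which makes acetoacetyl-CoA for lipid synthesis, had 282, 336, 300.2 and 296 in the high and 407, 406, 386, 443 and 411 in 1AF, 5AF, 7AF, 8AF and 9AF (-0.44 ± 0.06). Cyp51, a sterol demethylase of cholesterol synthesis, had 231, 197, 190.4 and 219 against 365, 364, 242, 271 and 244 (-0.48 ± 0.16). In Cyp51 the A537T libraries lay between the high libraries and 1AF and 5AF, whereas in Aacs the low libraries were alike. The others were Tiaf2, Nubp1, Gstt1, Ap1g2, Gm25776, Dpep1 and Echdc1. The 6 genes called lower had smaller counts, among them Zbp1, a sensor of nucleic acids, with 6.85, 0.982, 8.54 and 2.31 against 11.1, 14.5, 23.9, 25.8 and 13.03 (-1.92 ± 0.53).

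The lists drawn up for particular lobes had different medians in these libraries. Of 7 measured genes listed for the dorsal and anterior lobes, 6 were called higher (9530053A07Rik, Tgm4, Gm5615, C1rb, C1s2 and Pbsn), with a list median of 6.49 beside -0.00208 for all genes. Abo, a glycosyltransferase gene on that list, had 5348, 6229.8, 2516 and 3639 in the high libraries and 8066, 7041, 4192, 7376 and 3163 in the low ones (-0.42 ± 0.40). The list was composed with results of these data known and contains the gene that chose the libraries. Of 10 measured genes listed for the ventral and lateral lobes, 2 were called higher (Fgl1 and Mmp7) and 5 had a negative difference, with a median of -0.02.

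Sbp was abundant in every library at 30 weeks, with 520266, 686035, 333996 and 433959 in the high libraries and 945233, 777810, 462972, 953101 and 272401 in 1AF, 5AF, 7AF, 8AF and 9AF (-0.37 ± 0.44). Spink1 had 130773, 193233, 96304 and 147628 against 322910, 364418, 156964, 247035 and 129878 (-0.72 ± 0.38). The sets overlapped for both genes, in that the A537T libraries 7AF and 9AF did not exceed every high library. In WT and in KO the low library lay above both high libraries of its genotype. The differences with genotype as a term were -0.85 for Sbp and -1.32 for Spink1. These secretory genes of the labelled lobes were thus abundant in every library at 30 weeks, though not equally. Msmb, microseminoprotein, also overlapped (0.37 ± 0.51, and 0.35 with genotype as a term). Across the 18 libraries the exception was 15AF, a KO library at 10 weeks with 5.24% of its reads in 9530053A07Rik, in which Sbp took 0.00428% of reads against 1.79% to 11.4% in the other libraries.

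**Figure D3:**
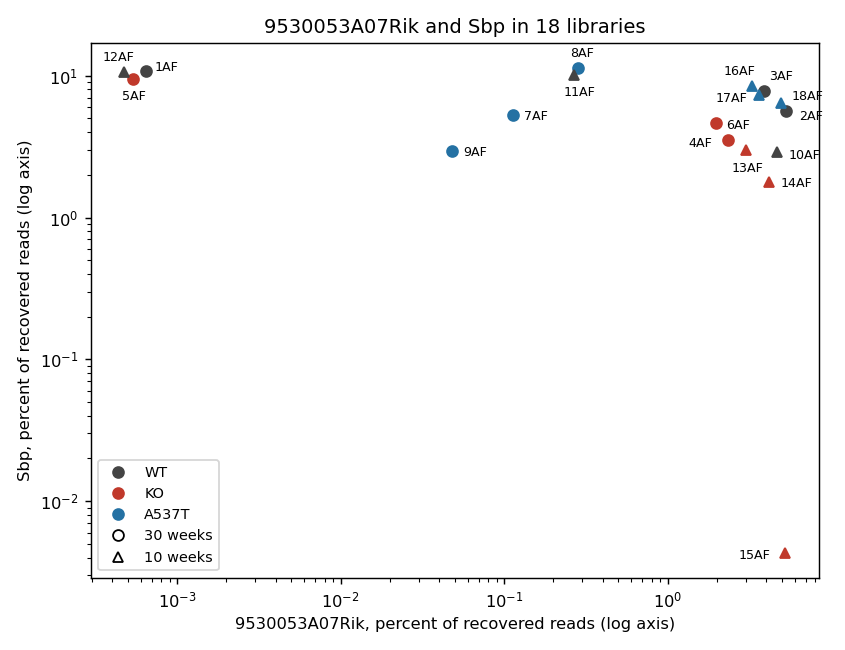
Percent of recovered reads in 9530053A07Rik (x) and in Sbp (y), both on log axes, 1 point a library, coloured by genotype, with circles for 30 weeks and triangles for 10 weeks. Libraries 1AF, 5AF and 12AF lie at the far left with 9.53% to 10.8% of reads in Sbp, and 15AF lies alone at the bottom right.

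General epithelial and secretory lists moved little. Of 16 luminal epithelial genes, 0 were called and 10 were negative (median -0.08), and of 10 basal genes, 0 were called (median 0.18). Among 30 genes of endoplasmic reticulum chaperones and stress, 0 were called and 23 were positive, with a median of 0.18. Of 18 androgen receptor genes and targets, Pbsn alone was called (median 0.14). Of 5 measured transglutaminases, Tgm4 alone was called, and Tgm2, the tissue transglutaminase, had a difference of -0.06 ± 0.07. Mt3, a metallothionein, was the 1 called of 16 genes of citrate and zinc handling, at 25.1, 15.7, 40.3 and 40.3 against 7.16, 0, 13.9, 12.4 and 9.78. Fut9 was the 1 called of 13 mucin-type glycosylation genes. Fcgbp was the 1 called of 15 other prostate secretory genes (median 0.06). Of 3 measured genes with von Willebrand factor D domains, 9530053A07Rik and Fcgbp were called, while Vwf overlapped (0.58 ± 0.37). None was called of 12 proximal luminal, 29 translocon and vesicle coat, 12 polyamine, 10 Hox, 14 cell cycle and 11 mitochondrial genes, with medians of -0.14, 0.04, -0.03, 0.27, -0.12 and 0.14.

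Immune lists had negative medians, high minus low. All 31 measured interferon response genes had a negative difference (Zbp1 called, median -0.45), as did 7 of 7 MHC class II genes (0 called, -0.56), 14 of 15 macrophage genes (0 called, -0.55) and 11 of 12 plasma and B cell genes (0 called, -1.04). With only the WT and KO libraries, the medians were -0.04, -0.18, -0.18 and 0.55. Jchain, the immunoglobulin joining chain, had 102, 84.4, 65.9 and 69.2 in the high libraries, 53.3 and 53.1 in 1AF and 5AF, and 328, 595 and 216 in the A537T libraries. The plasma cell list therefore had the opposite sign without A537T. In summed share of normalized counts, the interferon list was higher in the A537T libraries (0.0473% to 0.0696%) than in any other (0.0323% to 0.0432%). For macrophage genes the KO low library 5AF, at 0.0341%, lay within the A537T range of 0.022% to 0.0463%. The most abundant member of the plasma and B cell list was Pigr, an immunoglobulin receptor of epithelial cells. The summed share of that list therefore does not stand for plasma and B cells alone. It was higher in 1AF (0.278%) and 5AF (0.321%) than in 7AF (0.183%) and 9AF (0.131%). For Jchain each A537T library lay above both 1AF and 5AF. Of 3 measured T cell genes, 0 were called (-0.13).

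Markers of other tissues were not confined to 1 set. Seminal vesicle genes made up 8.54% of normalized counts in 4AF, 6.33% in 6AF, 7.25% in 7AF and 9.18% in 9AF, against at most 0.000854% in the other 5 libraries. They were thus present in 2 high and 2 low libraries, with 0 of 11 called and a median of 0.37. Among the 5 libraries without them, 2AF and 3AF were high and 1AF, 5AF and 8AF low. All 12 smooth muscle genes and all 11 endothelial genes had a positive difference with 0 called and medians of 0.36 and 0.40, which became 0.0863 and 0.084 without 1AF and 5AF. The summed share of smooth muscle genes was 0.339% to 0.502% in the high and 0.251% to 0.52% in the low libraries, with Myh11 and Acta2 the most abundant. It was 0.439% to 0.52% in 4AF, 6AF, 7AF and 9AF, which held seminal vesicle genes, and 0.251% to 0.344% in the other 5 libraries. The lists of fibroblasts (14 measured, median -0.03), adipocytes (12, 0.02), skeletal muscle (17, -0.19) and urothelium (2, 0.28) held 0 called genes. Their part in the differences was not tested.

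**Figure D4:**
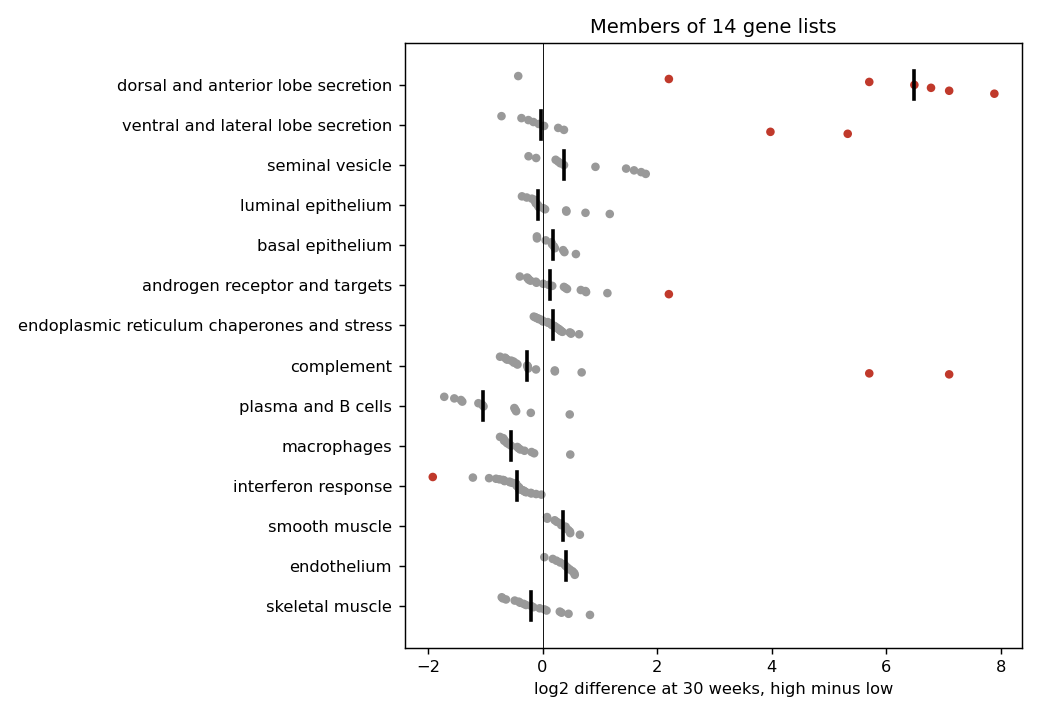
Log2 difference, high minus low at 30 weeks, of each measured member (points) of 14 gene lists, with a black bar at the list median. Red points had no overlap between the sets and a log2 difference of at least 1 in size. The dorsal and anterior list, which contains the gene that chose the libraries and was composed with results of these data known, stands at a median of 6.49. C1rb and C1s2 stand out of the complement list, and the interferon list lies below 0.

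The same genes were tested at 10 weeks, in libraries that the rule had not used. There the log2 level of each gene was regressed on that of 9530053A07Rik over 9 libraries with limma, and 9530053A07Rik itself was left out. Its normalized counts were 378819, 22983 and 49.6 in the WT libraries 10AF, 11AF and 12AF, 226663, 346673 and 400035 in the KO libraries 13AF to 15AF and 284631, 301191 and 372388 in the A537T libraries 16AF to 18AF. At this age the A537T libraries were as high as most others and the 2 low libraries were both WT.

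Of 15155 genes tested at 10 weeks, 864 rose with 9530053A07Rik (5.7%) and 915 fell (6.04%) at an adjusted p under 0.05 in limma. Of the 64 genes chosen as higher at 30 weeks, 62 had a positive slope, 48 rose and 0 fell. Their median slope was 0.259 on the log2 scale for each log2 unit of 9530053A07Rik, beside -0.00135 over all genes. The 13 genes with a 30-week difference of 5 or more all rose, with slopes from 0.516 to 1.06. Tcaf3 had 23631, 1821 and 1.03 in 10AF, 11AF and 12AF and 15588 to 28810.1 in the other 6 libraries, with a slope of 1.06 ± 0.02 (SE; limma, adjusted p = 1.89e-10). C1rb had 2249.7, 189.9 and 0 in the WT libraries and 1771 to 3023 in the others (0.89 ± 0.01, limma adjusted p = 1.89e-10). Tgm4 had 45942, 3071 and 18.6 and 29061 to 51170.5 (0.88 ± 0.02, limma adjusted p = 6.67e-10).

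These calls rested on 12AF and 11AF, the WT libraries with little 9530053A07Rik. Without 12AF, 209 genes were called in all, 38 of the 64 among them, and all 13 genes of the highest tier. Without 11AF and 12AF, 0 genes were called (388 at an unadjusted p under 0.05, in limma), although 61 of the 64 slopes were positive, with a median of 0.654, beside 49.5% positive over all genes. The share of skeletal muscle genes was 12.6% in 12AF, 6.49% in 11AF and 0.0579% to 4.34% in the other 10-week libraries, and 43 of the 64 rose with the skeletal muscle score as a term in the fit. With genotype as a term 37 rose, and with the seminal vesicle score 44 rose. Other lists also held called genes at 10 weeks, with 6 of 12 smooth muscle genes and 10 of 30 genes of endoplasmic reticulum chaperones and stress rising, whereas 0 of 17 skeletal muscle genes had a positive slope. The smooth muscle share was 0.238% in 12AF and 0.316% in 11AF, below the 0.371% to 1.10% of the other 10-week libraries, and the endoplasmic reticulum share was 0.55% in 12AF against 0.778% to 1.17% in the others. Their part in the slopes was not tested.

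Smaller followers were called at 10 weeks as well. Mmp7 rose with a slope of 0.59, Col4a6 with 0.38, Fcgbp with 0.34, Gata2 with 0.30, Pbsn with 0.20, Prodh with 0.19, Slc7a5 with 0.16 and Stat5a with 0.14 (limma, adjusted p from 8.13e-06 to 0.0214). Without 12AF, Mmp7, Col4a6 and Fcgbp were still called (slopes of 0.896, 0.641 and 0.757, limma adjusted p = 9.92e-06, 0.00025 and 0.00202). Gata2, Pbsn, Prodh, Slc7a5 and Stat5a were not, with limma adjusted p from 0.105 to 0.658 and slopes from 0.136 to 0.417. Some genes of the 30-week list were not called. Erich3 had a slope of -0.01 ± 0.07 (limma adjusted p = 0.955), Rnu3b4 -0.03 ± 0.02 (0.381) and Sprr2a2 0.45 ± 0.14 (0.0591). At 30 weeks the difference of Rnu3b4 rested on 9AF, with 0 there and 276 to 416 in the other low libraries against 422 to 624 in the high ones. Ctdsp1 and Gars, which were close in pattern at 30 weeks, had slopes of 0.02 at 10 weeks (limma adjusted p = 0.28 and 0.423). C1ra and C1s1 had slopes of 0.02 and 0.01 (limma adjusted p = 0.675 and 0.72), and Sbp had -0.29 ± 0.26 (0.462). Of the 3 genes lower at 30 weeks that were measured at 10 weeks, 0 were called.

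**Figure D5:**
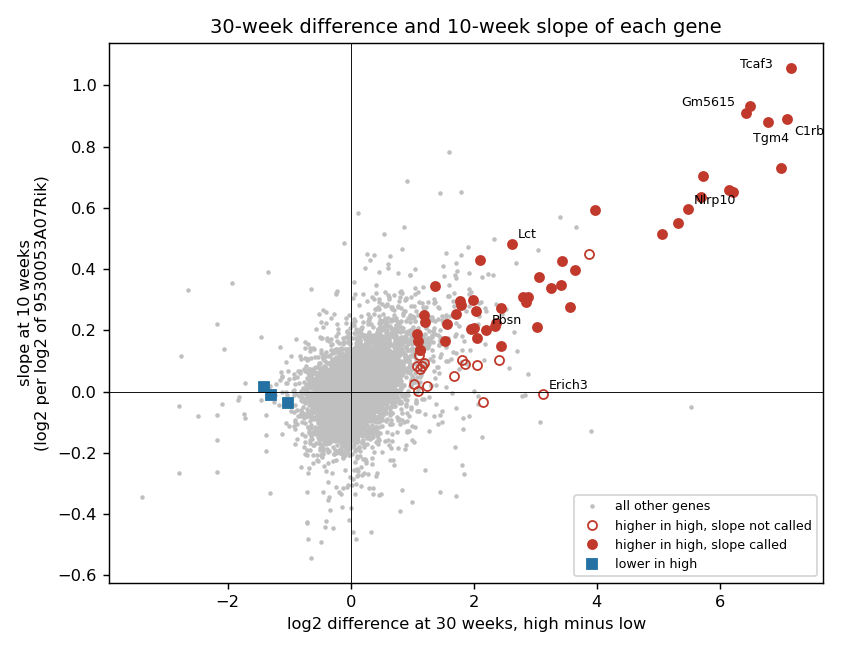
Each point is a gene measured at both ages, with the 30-week log2 difference, high minus low, on the x axis and the 10-week slope on 9530053A07Rik on the y axis. Filled red points are the 48 genes higher at 30 weeks whose slope was called, open red points the 16 that were not, blue squares the genes lower at 30 weeks and grey points all others. The genes beyond 5 on the x axis that were higher in the high set lie between 0.516 and 1.06 on the y axis.

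The study's own groups were compared at 30 weeks as well. In limma over the 9 libraries, 0 of 14763 genes were called for KO against WT (0% of genes) and 0 for A537T against WT (0%), with 1455 and 1764 at an unadjusted p under 0.05. The edgeR quasi-likelihood test also called 0 and 0, and DESeq2 called 122 and 323, of which 0 and 6 were among the 64 genes. 9530053A07Rik differed by -0.80 ± 3.97 in KO and -1.07 ± 3.97 in A537T (SE; limma adjusted p = 0.953 and 0.922), with 1 low library in each of WT and KO. Tgm4 differed by -0.87 ± 3.11 and -1.99 ± 3.11 (limma adjusted p = 0.931 and 0.801). On the scale of fitted means, edgeR and DESeq2 gave larger A537T differences, -4.46 and -4.45 for 9530053A07Rik (edgeR adjusted p = 0.47, DESeq2 0.331) and -4.57 and -4.57 for Tgm4 (0.407 and 0.223). With the log2 level of 9530053A07Rik as a term in limma, 6 of 14762 genes were called for KO and 62 for A537T. Of the 64 genes, 2 and 9 were among them, and the Tgm4 estimate in A537T was -1.15. The 64 genes, Tgm4 included, were chosen by their tie to 9530053A07Rik in these same libraries. Their calls in this fit are therefore no test of the genotype. The term is the value that chose the libraries, and the fit assumes 1 straight slope for all 9 libraries. Reads of 9530053A07Rik for each read of Tgm4 were 7.09 to 9.85 in A537T and 8.37 to 9.38 in the high libraries. They were 1.37 in 1AF and 1.33 in 5AF. How much of the -1.15 came from 1AF and 5AF was not tested. All 64 genes had a negative estimate in A537T, with a median of -1.14, and 49 in KO, with a median of -0.574, where the medians over all genes were -0.00314 and -0.00413. The 64 genes were chosen with every A537T library below both high WT libraries. Their negative direction in A537T therefore followed largely from that choice and is no result about the genotype. The direction for 9530053A07Rik depended on single libraries. Without 1 high WT library, 2AF or 3AF, the KO estimate was 1.47 or 1.20, and without 5AF it was 3.25. The KO median of the 64 genes was 0.0452 without 2AF and 0.35 without 5AF. The A537T median stayed between -2.23 and -0.595 with any 1 library left out, a direction that the choice of these genes favoured.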

How the data were processed

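Total RNA of ventral and lateral prostate lobes from 18 mice was sequenced. Per the labels and the study's methods, the authors trimmed reads with Trim Galore, aligned them to GRCm38 with STAR, quantified transcripts with Salmon in strand-specific mode, imported them with tximport and deposited DESeq2-normalized counts, a signal unit in which each column is divided by 1 size factor. The tables of KO and of A537T were scaled separately and share their WT libraries. Columns were assigned to a genotype by the tables that hold them and by the match of row means to the study's listed mean counts. They carry no replicate number. Tables of the authors' fold changes and p-values were not used.

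Whole reads were recovered by dividing each column by the value of 1 read. At least 99.98% of values came out within 0.01 of a whole number. WT reads were taken from the KO table; 53.6% to 56% of genes with reads had another read number in the A537T table. Libraries of 1 age were scaled together by median-of-ratios size factors (DESeq2), and values are log2(normalized count + 1), a scale that understates differences of low genes. Genes with a mean of at least 10 were used. High and low were described by the difference of mean log2 values with its standard error (limma). The 10-week slope and the genotype contrasts at 30 weeks were tested with limma (trend) and Benjamini-Hochberg adjustment over all genes at 0.05. P-values measure the spread between mice. A read was worth 0.734 to 1.23 deposited normalized counts at 30 weeks. Fits were tested on simulated data. Alternatives were edgeR, DESeq2, other scalings, filters and pseudocounts, added terms and left-out libraries. R 4.3.3 was used.

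Genes were named as follows: both markers, Elac2, the 10 highest and 10 lowest without overlap at a mean of at least 100, the 10 most alike, and of each list the 2 most abundant and every called member. Other genes are named with their values known. The members and lists were chosen with earlier results of these data known. Promoter windows came from RefSeq (GRCm38.p6), positions from GENCODE vM21, and 55107 of 55469 gene identifiers matched it.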

Additional observations from a re-analysis of the deposited data

Results flagged for a closer look

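In 26 named genes, the highest and lowest library of each set were compared with the rest of that set, which made 52 comparisons, of which chance alone flags about 1 in 20. The only library that stood apart was 5AF for Gstt1, a glutathione transferase, with a normalized count of 220 where the other 4 low libraries had 125 to 145.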

How the results depend on the processing

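No paired analysis was possible because the columns carry no replicate number, and the replicate block was not run. The count of 65 higher and 6 lower genes depended on which libraries had to be separated. It was 59 and 3 with a pseudocount of 8, 129 and 18 at a minimum mean of 1, 38 and 0 at a minimum mean of 100, and 40 and 1 at a log2 difference of at least 2. With fewer libraries to separate, it was 828 and 159 within genotypes, 546 and 120 in libraries with few seminal vesicle counts and, chosen after seeing the data, 710 and 132 in WT and KO alone and 75 and 73 without 1AF and 5AF. Leaving out 1 library gave 63 to 99 higher and 6 to 35 lower genes, the extremes of the first without 5AF and 6AF and of the second without 5AF and 1AF (14 lower genes without 2AF, 12 without 3AF, 15 without 4AF, 15 without 6AF and 10 without 9AF). Genes chosen for no overlap cannot gain one when libraries are left out, so their recall in such subsets is not given. The difference of 9530053A07Rik was 12.47 and that of Tgm4 9.75 both within genotypes and with WT and KO alone, and 6.69 to 8.95 and 5.99 to 7.55 with 1 library left out.

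At 10 weeks 1779 genes were called. The count was 2758 with DESeq2, 3074 with scaling to the same total (2717 rising and 357 falling), 761 with genotype, 773 with the skeletal muscle score and 699 with the seminal vesicle score as a term, 209 to 1988 with 1 library left out (209 without 12AF, 1089 without 14AF) and 0 without 11AF and 12AF. Of the 64 higher genes, a count added after seeing the data, 0 rose without 11AF and 12AF and 36 to 52 under the other alternatives, the 36 being of 42 tested at a minimum mean of 100. The slope of Gars was -0.004652 with the seminal vesicle score and -0.05433 without 11AF and 12AF, and that of Ctdsp1 -0.1054 without them. For KO against WT and A537T against WT, DESeq2 called 122 and 323, a pseudocount of 8 called 0 and 11, and the level of 9530053A07Rik as a term called 6 and 62. Leaving out 1 library called 0 to 1 and 0 to 59 genes, the latter without 8AF. With 1 library left out, the KO estimate of 9530053A07Rik ran from -5.06 to 3.25 and of Tgm4 from -4.26 to 2.24, and the A537T estimate of 9530053A07Rik from -5.34 to 1.20, each lowest without 1AF and highest without 5AF in KO and without 2AF in A537T. The cause was not tested. Depth limits genes at 0 to 3 reads, and scaling to the same total moved the median of all genes by under 0.1 at 30 weeks.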
